A study of Mus musculus with 12 samples.

Results

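Chemokines and their receptors in interscapular brown adipose tissue (BAT) were taken from RNA-seq of WT and Txnip-/- mice. The members were chosen by symbol: Ccl and Cxcl ligands, Ccr and Cxcr receptors, Cx3cl1, Cx3cr1, Xcl1, Xcr1 and the atypical receptors Ackr1 to Ackr4. The rule found 61 of the 25124 listed genes, and the 26 with a mean of at least 1 TPM (transcript abundance per length, scaled to the same total in every library) over the 4 groups form the described set. The other 35 are low, and 3 of these, Ccl20, Ccl21b and Ccl21c, are listed at 0 in all 12 libraries. Just inside the limit lay Ccl22 and Cxcr3, with means of 1.15 and 1.13 TPM, and just outside it lay Ccl7 and Ccr7, with 0.862 and 0.779 TPM. All mice were males of 10 weeks on a C57B/6J background, and they were kept for 1 week at room temperature (RT, 23 °C) or at thermoneutrality (TN, 30 °C), where a mouse needs no extra heat production. Each of the 4 combinations of genotype and temperature had 3 libraries, and they are named here by temperature and genotype, as in RT WT. No source used here names a tissue-specific Cre for the Txnip-/- line, so a change in brown adipocytes and a change in other cells of these mice cannot be told apart. Txnip encodes thioredoxin-interacting protein, a regulator of redox state and glucose uptake.

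Chemokines are small secreted proteins that bind glycosaminoglycans on cell surfaces and matrix and direct the migration of leukocytes. They act through receptors coupled to inhibitory G proteins, while the atypical receptors bind chemokines without this signal and remove or transport them. In adipose tissue, the ligands of CCR2 are known for drawing monocytes from blood, and CXCL12 is made by stromal cells and adipocytes and holds hematopoietic cells that carry CXCR4.

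The libraries held 29.93 to 47.44 M reads (M for mega). Txnip was at 564, 581 and 694 TPM in the RT WT libraries and at 24.8, 26.9 and 35.4 TPM in RT Txnip-/-, and TN libraries held 1238, 1083 and 1072 TPM in WT and 11.0, 14.4 and 10.5 TPM in Txnip-/- mice, so that each library matched its genotype label. The 10 brown adipocyte markers summed to between 17600 and 29700 TPM in every library, most of it Fabp4. Ucp1, the uncoupling protein that defines brown fat, differed between the groups. It was at 3770 to 4366 TPM in RT WT, 2527 to 3900 TPM in RT Txnip-/-, 621 to 1136 TPM in TN WT and 154 to 339 TPM in TN Txnip-/-. At TN, Cox8b, Cidea and Ucp1 were called lower in Txnip-/- mice, and at RT Elovl3 was. Elovl3 was at 0.202 to 0.469 TPM in TN Txnip-/-. A bulk library holds all cells of the tissue, so fewer cells of a type and less RNA per cell cannot be told apart. TPM are divided by transcript length, so that levels can be set against each other between genes. Differences between groups are log2 fold changes on the scale log2(TPM + 1), which understates the change of genes with low TPM, and were tested with limma across all genes with a mean of at least 1 TPM in the libraries compared. A gene was called when its fold change was below 0.8 or above the inverse of 0.8 and its Benjamini-Hochberg adjusted p was under 0.05. The WT mice were littermates of the Txnip-/- mice, and which libraries share a litter is not given in the sources used here. The genotype comparisons share libraries with the temperature comparisons, so the values of a member in different comparisons are set side by side without a test of their likeness.

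By mean TPM over all 4 groups, the most abundant members were the scavenging receptor Ackr3 (49.5), the stromal ligand Cxcl12 (26.6), the eosinophil attractant Ccl11 (19.0), Cxcl14 (14.3), the interferon-inducible Cxcl9 (13.2) and Ccl6 (12.4). The order differed between groups. Ackr3 led at RT, with means of 89.1 TPM in WT and 59.9 TPM in Txnip-/- libraries. At TN, Cxcl12 led with 33.3 and 31.5 TPM, against 24.8 and 24.1 TPM for Ackr3, and Ccl6 reached 30.2 TPM in TN Txnip-/-. Summed over all 61 members, the level at RT was 156 to 234 TPM in WT libraries and 155 to 227 TPM in those of Txnip-/- mice, and at TN it was 176 to 213 and 266 to 311 TPM. The TN Txnip-/- libraries lay above all the others in this sum. Several members are neighbors in the genome (mm10). Ccl2, Ccl7, Ccl11, Ccl12 and Ccl8 lie in this order within 81.2 kb (chr11:82035577-82116799), and Ccl5, Ccl9, Ccl6, Ccl3 and Ccl4 within 139 kb of the same chromosome (chr11:83525779-83664683). Cxcl9, Cxcl10 and Cxcl11 lie within 42.0 kb (chr5:92321331-92363296).

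The promoters of 2 pairs of these neighbors are shown as examples of adjacent genes that were both higher at TN than at RT in each genotype. Ccl2, Ccl8 and Ccl12 were so too, and theirs are not printed. The sequences are from RefSeq on GRCm38.p6, the same assembly as mm10, and run from 250 bases before to 50 bases after the annotated start. Such entries were matched for 45 of the 61 members and for 20 of the 26 described ones, with 52 entries in all. In Cxcl10 (chr5:92348840-92349139, minus strand) and Cxcl9 (chr5:92328030-92328329, minus strand) capitals mark matches to the NF-kB motif, to the core of the interferon-stimulated response element (GAAA, any 2 bases, GAAA) and to the AP-1 motif TGANTCA, each searched on both strands.
Cxcl10: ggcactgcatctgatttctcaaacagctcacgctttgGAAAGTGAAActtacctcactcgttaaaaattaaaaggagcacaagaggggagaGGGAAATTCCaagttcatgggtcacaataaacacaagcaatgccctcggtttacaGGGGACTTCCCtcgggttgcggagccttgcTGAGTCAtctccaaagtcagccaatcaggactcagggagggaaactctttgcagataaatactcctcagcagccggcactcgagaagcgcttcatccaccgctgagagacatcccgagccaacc
Cxcl9: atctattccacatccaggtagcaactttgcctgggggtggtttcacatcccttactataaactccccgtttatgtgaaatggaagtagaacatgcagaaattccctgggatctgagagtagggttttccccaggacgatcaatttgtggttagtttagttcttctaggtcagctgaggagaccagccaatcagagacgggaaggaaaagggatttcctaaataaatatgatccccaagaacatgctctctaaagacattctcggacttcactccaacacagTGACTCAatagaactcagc
The Cxcl10 promoter held all 3 motifs. Counted from the start base to the first base of the match, the interferon element lay at −213, NF-kB matches at −159 and, overlapping each other, at −104 and −103, and the AP-1 match at −74. In the Cxcl9 window the only match was an AP-1 motif at position 32, with the start base taken as the first position. This says only that the other letters are not in the window. NF-kB matches were found in 12 of the 52 member entries (23.1%) and in 8.46% of all 32851 promoters of the table, the interferon element in 3 (5.77%) and in 3.44%, and AP-1 in 9 (17.3%) and in 7.81%. Of the 12 members with an NF-kB match, 9 were low and 3 are described, namely Cxcl10, Ccl9 and Ccl27a.

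Ccl6 (chr11:83593038-83593337, minus strand) and Ccl9 (chr11:83578587-83578886, minus strand) had the highest-scoring local alignment among 249 pairs of promoter entries of the described members. Capitals mark the bases that are identical in the alignment, 59 of 74 columns (79.7%).
Ccl6: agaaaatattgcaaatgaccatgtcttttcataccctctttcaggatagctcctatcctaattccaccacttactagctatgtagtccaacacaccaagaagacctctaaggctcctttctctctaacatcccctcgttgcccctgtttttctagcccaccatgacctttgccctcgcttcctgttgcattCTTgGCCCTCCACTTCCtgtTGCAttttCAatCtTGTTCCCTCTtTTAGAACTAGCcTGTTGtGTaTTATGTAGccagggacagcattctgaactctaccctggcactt
Ccl9: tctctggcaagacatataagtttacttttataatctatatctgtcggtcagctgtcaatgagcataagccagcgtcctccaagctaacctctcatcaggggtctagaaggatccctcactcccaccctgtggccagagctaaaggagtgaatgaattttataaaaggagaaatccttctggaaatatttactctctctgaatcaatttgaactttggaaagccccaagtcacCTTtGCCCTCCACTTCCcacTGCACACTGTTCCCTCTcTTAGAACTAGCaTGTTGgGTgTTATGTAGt
The Ccl9 window also held an NF-kB match at −35 on the reverse strand and an AP-1 match at −53, while the Ccl6 window held no match to the 3 motifs. A match is a description of letters and not a measurement of binding.

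Txnip-/- mice were compared with WT mice at each temperature to ask how BAT expression depends on Txnip. At RT, the macrophage chemokines Ccl6 and Ccl5 and the monocyte receptor Ccr2 were higher in Txnip-/- mice, at 3.05, 2.93 and 3.34 times the WT mean TPM. At TN, these 3 were again higher, at 3.70, 2.89 and 3.14 times the WT mean, and so were Ccl9, Cxcl16, Ccl21a and the low members Ccr7 and Cxcr6. No member was called lower at either temperature. The abundant stromal and scavenging members Cxcl12, Ccl11, Cxcl14 and Ackr3 were not called in either genotype comparison.

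At RT, 19 of the 61 members passed the filter on low values and 3 of these were called higher, against 0.76% of the 11980 genes tested, and 0 lower, against 0.726% of those genes. With an unadjusted p under 0.05, limma marked 8 of the 19 members and 1921 of all genes. The median log2 fold change of the 19 members was 0.10, beside 0.03 for all genes tested. The calls at RT were not stable: 0 members were called without RT WT replicate 1, without RT WT replicate 2, without RT Txnip-/- replicate 1 or without RT Txnip-/- replicate 3, and 1 member, Ccl6, without RT WT replicate 3. Without RT Txnip-/- replicate 2 the count was 3, of which Ccl6 was shared and Ccl9 and Cxcl16 were gained. At TN, 31 members passed the filter, 5 of them with an overall mean under 1 TPM, and 9 were called higher, against 6.49% of the 12891 genes tested, and 0 lower, against 2.17%. There limma gave an unadjusted p under 0.05 for 15 of the 31 members and for 3306 of all genes. Their median log2 fold change was 0.46, beside 0.01 for all genes. Leaving out 1 library gave between 3 calls, without TN Txnip-/- replicate 2, and 9, and 5 without TN Txnip-/- replicate 1 or without TN WT replicate 2. Members at low TPM pass the filter through the group in which they are high, so these counts are read as a description of the members that passed.

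**Figure D1:**
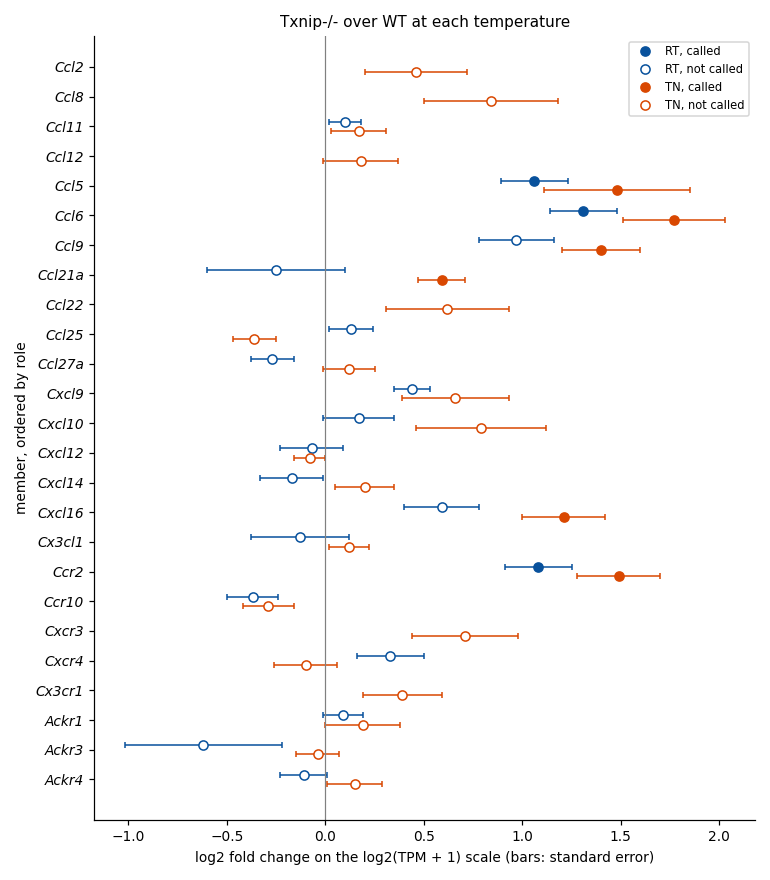
Log2 fold change of Txnip-/- over WT on the log2(TPM + 1) scale (x axis) for members of the described set (y axis, by role) at RT (blue) and TN (orange). Bars are standard errors of limma, filled points were called, and members with no RT point were left out there because their RT mean was under 1 TPM. The filled points, 3 at RT and 6 at TN, all lie to the right of 0.

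Markers of other cells moved with the genotype. The 16 macrophage markers summed at RT to 96.7 to 113 TPM in WT libraries and 155 to 244 TPM in those of Txnip-/- mice, and at TN to 201 to 345 and 557 to 793 TPM, and 4 of the 14 tested at RT and 12 of the 16 tested at TN were called higher in Txnip-/- mice. The 6 monocyte markers, of which Ccr2 is a member here, summed at RT to 2.14 to 3.48 TPM in WT and 5.01 to 7.95 TPM in Txnip-/- mice, and at TN to 8.07 to 14.2 and 26.1 to 39.6 TPM. The 9 T cell markers found summed to 2.69 to 3.94, 5.12 to 7.02, 4.33 to 12.2 and 17.3 to 24.0 TPM in the same order of groups, and the 10 fibroblast and progenitor markers to 295 to 346, 354 to 404, 485 to 596 and 985 to 1020 TPM. The 9 B and plasma cell markers found summed to 1.88 to 3.79 and 3.32 to 4.54 TPM at RT and to 6.51 to 8.84 and 18.6 to 28.2 TPM at TN, in WT and Txnip-/- libraries, and Jchain was called higher in Txnip-/- mice at each temperature. In the same order, the 7 NK cell markers summed to 0.657 to 1.39, 1.89 to 3.03, 2.49 to 5.72 and 8.86 to 18.5 TPM, with Klrk1 called at TN. The 8 dendritic cell markers, of which Ccr7 is a member here, summed to 8.85 to 10.6, 10.4 to 12.5, 13.2 to 14.8 and 19.6 to 21.1 TPM, with 3 of the 5 tested called higher at TN. The 8 mast cell and eosinophil markers summed to 2.48 to 7.23, 3.98 to 15.9, 15.3 to 18.8 and 19.2 to 32.8 TPM, most of it Kit, the one marker tested, which was called higher in Txnip-/- mice at TN. The mast cell protease Cpa3 was at 0.483 to 1.21 TPM in TN WT and at 0.273 to 0.373 TPM in TN Txnip-/-. The 9 skeletal muscle markers were at 4.06 to 4.37 TPM in RT WT and at 15.6 to 39.2 TPM in RT Txnip-/-, with 4 of the 5 tested called higher at RT, and at 4.12 to 16.6 TPM at TN. The 10 lipid-laden macrophage markers, which include Trem2, Gpnmb and Mmp12, had 8 of the 10 tested called higher in Txnip-/- mice at TN, with a median log2 fold change of 1.45, beside 0.99 for the 16 macrophage markers, and 2 of the 4 tested at RT. The 8 neutrophil markers summed at RT to 1.78 to 4.54 TPM in WT libraries and to 2.10 to 4.26 TPM in Txnip-/- libraries, and at TN to 7.15 to 9.97 and 8.97 to 17.8 TPM. S100a8 and S100a9 led this list and reached 5.39 and 7.84 TPM, while the defining Ly6g and Mpo reached at most 0.16 and 0.26 TPM, and none of the 5 tested at TN was called between genotypes. The 6 lymph node stroma markers summed to 0.763 to 1.32 TPM in RT WT, 1.16 to 1.60 TPM in RT Txnip-/-, 2.65 to 3.95 TPM in TN WT and 4.99 to 7.75 TPM in TN Txnip-/-. Ltb, a lymphotoxin chain of lymphocytes and not of stroma, led this list and reached 5.91 TPM. It was called higher in Txnip-/- mice at TN and at TN in both genotypes, while Glycam1, Madcam1 and Cr2 reached at most 0.54, 0.267 and 0.309 TPM. The part of these cells in the member results was not tested.

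TN was compared with RT in each genotype to ask how the same genes follow housing temperature. Whether RT and TN libraries were housed or sequenced together is not given in the sources used here. Temperature and such a batch cannot be told apart. Most described members were higher at TN. On the log2(TPM + 1) scale the largest rises were those of the interferon-inducible Cxcl10, at 6.24 times its RT mean TPM in WT and 8.58 times in Txnip-/- mice, and of Ccr2, at 5.79 and 5.43 times. By the ratio of mean TPM alone, members with RT means under 1 TPM lay higher, such as Ccl22 with 10.9 times in WT and Ccl12 with 16.1 times in Txnip-/- mice. The abundant receptor Ackr3 went the other way, to 0.278 of its RT mean in WT and 0.403 in Txnip-/- mice, and Ccr10 was also lower at TN in each genotype. Ccl27a and Ackr4 were called lower at TN in WT, and Ccl25 in Txnip-/- mice. In WT, 18 of the 26 members tested were called higher, against 31.4% of the 12486 genes tested, and 4 lower, against 6.39%. In Txnip-/- mice, 20 of the 26 were called higher, against 30.9%, and 3 lower, against 8.27%. The median log2 fold change of the members was 0.89 in WT and 0.98 in Txnip-/- mice, beside 0.18 and 0.15 for all genes tested. Of the 26 members, 7 had a mean under 1 TPM at RT and passed through the TN libraries, among them Ccl2, Cx3cr1, Ccl8, Ccl12, Ccl22 and Cxcr3. Among the 19 with an RT mean of at least 1 TPM, 11 were called higher and 4 lower in WT, and 13 higher and 3 lower in Txnip-/- mice. Markers of many cells moved with temperature too. Called higher at TN were 12 of the 16 macrophage markers in WT and 13 in Txnip-/- mice, 8 of 9 lipid-laden macrophage markers in each genotype, with Lpl lower, and all 4 monocyte, all 4 T cell and both neutrophil markers tested. Of other lists, 7 of 9 fibroblast markers were called higher in WT and 8 in Txnip-/- mice, and 6 and 9 of 10 endothelial markers. So were 2 and 3 of 3 B and plasma cell markers, 2 of 3 dendritic cell markers in each genotype, and Kit in each. Of 5 skeletal muscle markers, 1 was higher in each genotype, Mb. The other 4, Myh4, Ckm, Tnnt3 and Acta1, were called lower in Txnip-/- mice, with a list median of −1.86. The pericyte and smooth muscle markers had medians of −0.01 and 0.02, with 2 of 7 called higher and 1 lower in WT and 1 higher in Txnip-/- mice. Of the 10 brown adipocyte markers, 4 were called lower and 2 higher, Lep and Pparg, in WT, and 6 lower and 1 higher, Lep, in Txnip-/- mice. Ucp1, Cox8b and Elovl3 were among those lower in each genotype. The part of these cells in the member results was not tested.

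**Figure D2:**
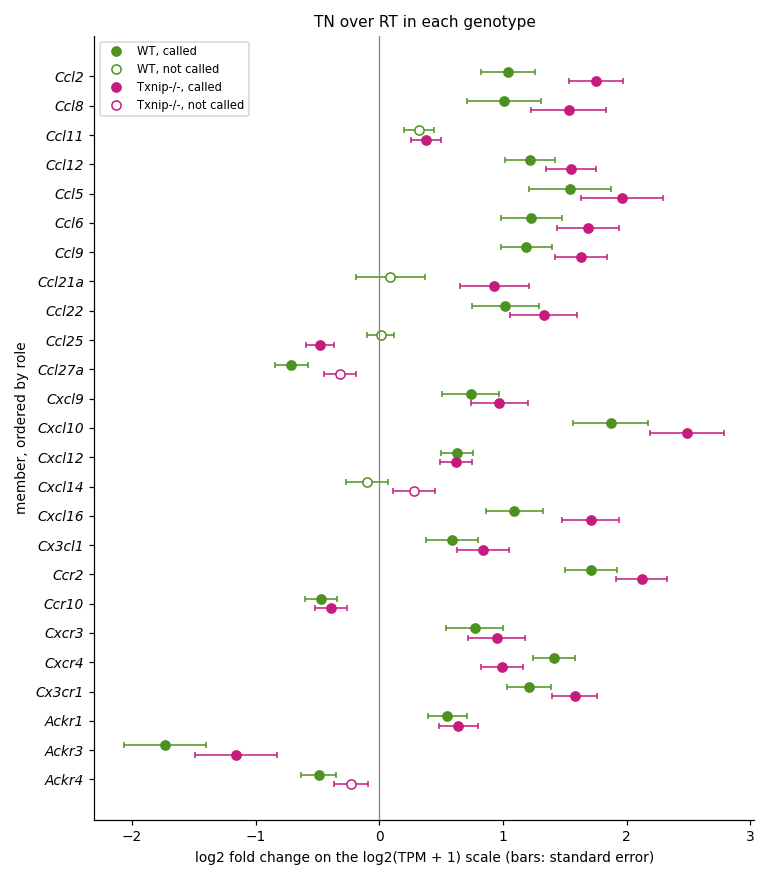
Log2 fold change of TN over RT on the log2(TPM + 1) scale (x axis) for members of the described set (y axis, by role) in WT (green) and Txnip-/- mice (magenta). Bars are standard errors of limma and filled points were called. Cxcl10 and Ccr2 lie farthest to the right and Ackr3 farthest to the left in each genotype.

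Of the 5 macrophage inflammatory CC ligands, 3 were described, Ccl5, Ccl6 and Ccl9, and their summed level with the low Ccl3 and Ccl4 was at RT 4.61 to 6.38 TPM in WT and 12.5 to 17.3 TPM in Txnip-/- mice, and at TN 12 to 26.1 and 42.2 to 72.0 TPM. Ccl6, a rodent ligand of CCR1 made by myeloid cells, was at 2.62, 2.42 and 3.34 TPM in WT libraries at RT and at 10.5, 6.56 and 8.51 TPM in those of Txnip-/- mice. Ccl6 at TN was at 6.31, 6.59 and 11.6 TPM in WT libraries and at 32.9, 37.0 and 20.6 TPM in Txnip-/- libraries. The Txnip-/- libraries lay above the WT libraries at each temperature, and TN WT lay near RT Txnip-/- with overlap between them. The genotype difference (log2, Txnip-/- over WT) was 1.31 (standard error 0.17, adjusted p = 0.0214) at RT and 1.77 (standard error 0.26, adjusted p = 0.00854) at TN, and that of TN over RT was 1.23 (standard error 0.25, adjusted p = 0.00193) in WT and 1.69 (standard error 0.25, adjusted p = 0.000211) in Txnip-/- mice. The call of Ccl6 at RT was lost in 5 of 14 alternatives and that at TN in none of 14. Alternatives in which a member failed the filter on low values are left out of such counts. The fit without a fold limit is in them and cannot lose a call. The neighboring Ccl9, also a rodent CCR1 ligand, was at 0.862, 0.667 and 1.09 TPM in WT libraries at RT and at 3.498, 1.79 and 2.88 TPM in those of Txnip-/- mice. Ccl9 at TN was at 2.65, 3.21 and 4.07 TPM in WT libraries and at 11.2, 13.0 and 7.38 TPM in Txnip-/- libraries. Its groups did not overlap at either temperature, and the log2 fold change was 0.97 (standard error 0.19, adjusted p = 0.0618) at RT, which was not called, and 1.40 (standard error 0.20, adjusted p = 0.00798) at TN, where it was called. At RT it was called when all 12 libraries were fitted together, at an adjusted p of 0.0391, and with the deposited log2 values, at 0.0472 (limma), and Ccl5 lost its RT call under both. TN over RT was 1.19 (standard error 0.21, adjusted p = 0.00104) in WT and 1.63 (standard error 0.21, adjusted p = 0.000106) in Txnip-/- mice. Ccl5 (RANTES), a T cell and monocyte attractant made by T and NK cells and by macrophages, was at 0.763, 1.56 and 1.42 TPM in WT libraries at RT and at 2.94, 4.1 and 3.91 TPM in those of Txnip-/- mice. Ccl5 at TN was at 2.46, 6.92 and 8.76 TPM in WT libraries and at 20.8, 19.6 and 12.1 TPM in Txnip-/- libraries. The genotypes did not overlap at either temperature, and TN WT replicate 1 lay below the RT Txnip-/- libraries. On the log2 scale, Ccl5 differed by 1.06 (standard error 0.17, adjusted p = 0.0404) at RT and 1.48 (standard error 0.37, adjusted p = 0.0444) at TN in Txnip-/- mice against WT, and by 1.54 (standard error 0.33, adjusted p = 0.00284) in WT and 1.96 (standard error 0.33, adjusted p = 0.000527) in Txnip-/- mice at TN against RT. Its call at RT was lost in 10 of 14 alternatives, with an adjusted p of 0.0217 to 0.151 over them, and its call at TN in 6 of 14, with 0.0131 to 0.137.

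**Figure D3:**
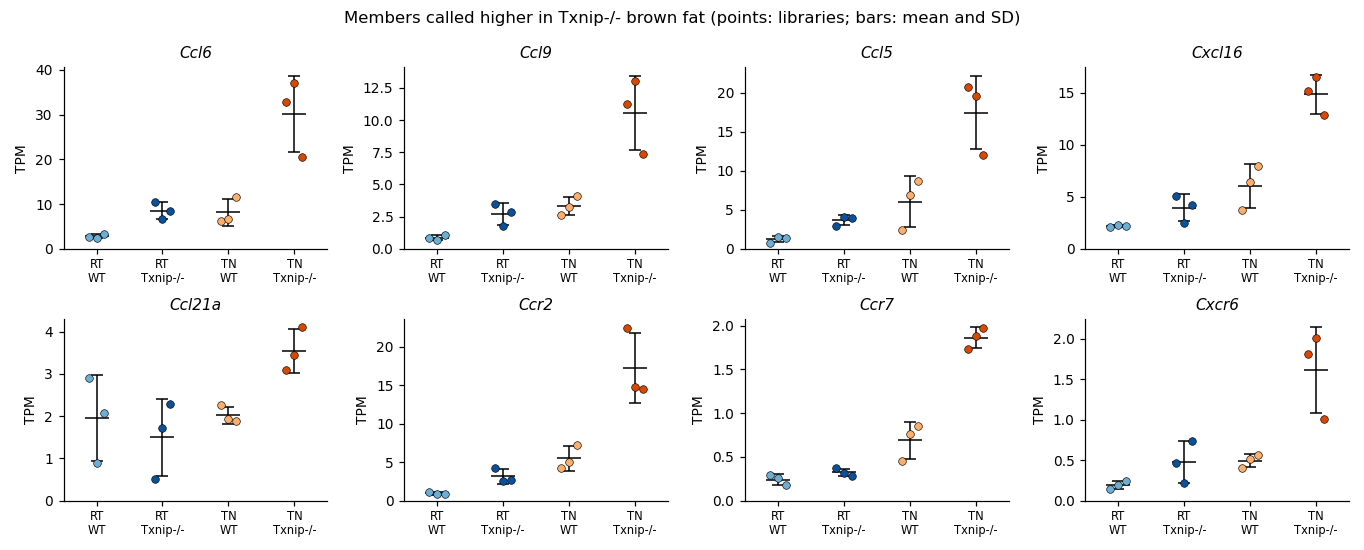
TPM (y axis) of 8 members called higher in Txnip-/- mice in at least 1 genotype comparison, by group (x axis). Points are the 3 libraries of a group and bars are the mean and SD. In each panel the TN Txnip-/- libraries lie above the TN WT libraries.

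The monocyte and eosinophil attracting CC ligands held 4 described members. Only Ccl11 of them had a mean of at least 1 TPM at RT, and Ccl2, Ccl8 and Ccl12 passed the filter through the TN libraries. Ccl11 (eotaxin), the eosinophil attractant, was at 14.2, 16.4 and 17.1 TPM in WT libraries at RT and at 17.1, 16.9 and 17.2 TPM in those of Txnip-/- mice. Ccl11 at TN was at 20.9, 19.0 and 20.2 TPM in WT libraries and at 18.2, 22.7 and 27.9 TPM in Txnip-/- libraries. The RT groups and the TN groups overlapped between genotypes, and the genotype difference was 0.10 (standard error 0.08, adjusted p = 0.602) at RT and 0.17 (standard error 0.14, adjusted p = 0.511) at TN. With TN it rose in Txnip-/- mice by 0.38 (standard error 0.12, adjusted p = 0.0206), a call lost in 3 of 13 alternatives, while in WT the change of 0.32 (standard error 0.12, adjusted p = 0.0455) stayed under the fold limit although the groups did not overlap. Ccl2 (MCP-1), the main ligand of CCR2, was at 0.501, 0.795 and 0.718 TPM in WT libraries at RT and at 0.363, 0.395 and 0.467 TPM in those of Txnip-/- mice. Ccl2 at TN was at 1.21, 3.21 and 3.36 TPM in WT libraries and at 3.87, 4.51 and 2.95 TPM in Txnip-/- libraries. All TN libraries lay above all RT libraries, and at RT the Txnip-/- libraries lay below the WT libraries, where the gene was too low to be tested. Ccl2 rose at TN by 1.04 (standard error 0.22, adjusted p = 0.00283) in WT and 1.75 (standard error 0.22, adjusted p = 9.38e-05) in Txnip-/- mice, and Txnip-/- over WT at TN was 0.46 (standard error 0.26, adjusted p = 0.319). The CCR2 ligand Ccl12 was at 0.168, 0.0860 and 0.650 TPM in WT libraries at RT and at 0.0910, 0.0990 and 0.264 TPM in those of Txnip-/- mice. Ccl12 at TN was at 1.90, 1.51 and 2.59 TPM in WT libraries and at 2.86, 2.85 and 1.59 TPM in Txnip-/- libraries. Every RT library was at or under 0.650 TPM and every TN library at or over 1.51 TPM. The rise of Ccl12 at TN was 1.22 (standard error 0.20, adjusted p = 0.00072) in WT and 1.55 (standard error 0.20, adjusted p = 0.000102) in Txnip-/- mice, and the genotypes overlapped at TN. Ccl8 (MCP-2), in the mouse a ligand of CCR8, was at 0.0880, 0 and 0.455 TPM in WT libraries at RT and at 0.287, 0.521 and 0.555 TPM in those of Txnip-/- mice. Ccl8 at TN was at 0.879, 1.27 and 2.01 TPM in WT libraries and at 4.37, 4.82 and 1.33 TPM in Txnip-/- libraries. TN Txnip-/- replicate 3 lay within the TN WT range, and the other 2 Txnip-/- libraries lay above it. Ccl8 rose at TN by 1.01 (standard error 0.30, adjusted p = 0.0171) in WT, a call lost in 2 of 12 alternatives, and 1.53 (standard error 0.30, adjusted p = 0.00158) in Txnip-/- mice, and its TN genotype difference of 0.84 (standard error 0.34, adjusted p = 0.172) was not called. The low Ccl7, which passed the filter at TN, had a TN genotype difference of 0.20 (standard error 0.16, adjusted p = 0.491).

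The homeostatic and barrier CC ligands held 12 members, 4 of them described. Ccl21a, a CCR7 ligand of lymphatic vessels and lymph node stroma, was at 2.90, 0.897 and 2.07 TPM in WT libraries at RT and at 0.505, 1.71 and 2.28 TPM in those of Txnip-/- mice. Ccl21a at TN was at 2.25, 1.93 and 1.87 TPM in WT libraries and at 3.08, 3.45 and 4.107 TPM in Txnip-/- libraries. The RT groups overlapped, and at TN the Txnip-/- libraries lay above the WT libraries. The genotype difference (log2, Txnip-/- over WT) was −0.25 (standard error 0.35, adjusted p = 0.777) at RT and 0.59 (standard error 0.12, adjusted p = 0.0209) at TN, and the call at TN was lost in 7 of 14 alternatives, with an adjusted p of up to 0.222. TN over RT was 0.09 (standard error 0.28, adjusted p = 0.81) in WT and 0.93 (standard error 0.28, adjusted p = 0.0168) in Txnip-/- mice, a call lost in 2 of 13 alternatives. Reads of Ccl21a can be shared with the near-identical Ccl21b and Ccl21c, so its level is uncertain. The lymphatic endothelial markers summed to 4.65 to 6.85 TPM over the RT libraries and to 7.91 to 8.78 TPM over the TN libraries, and none of them was called between genotypes at TN. Ccl22, a ligand of CCR4 made by dendritic cells and macrophages, was at 0.124, 0.101 and 0.159 TPM in WT libraries at RT and at 0.348, 0.584 and 0.285 TPM in those of Txnip-/- mice. Ccl22 at TN was at 0.493, 1.72 and 1.96 TPM in WT libraries and at 3.71, 2.84 and 1.43 TPM in Txnip-/- libraries. All TN libraries but TN WT replicate 1 lay above all RT libraries, and the TN groups overlapped. Ccl22 rose at TN by 1.02 (standard error 0.27, adjusted p = 0.00804) in WT and 1.33 (standard error 0.27, adjusted p = 0.00154) in Txnip-/- mice, and Txnip-/- over WT at TN was 0.62 (standard error 0.31, adjusted p = 0.261). Ccl25, the thymus and gut ligand of CCR9, was at 3.02, 3.81 and 4.22 TPM in WT libraries at RT and at 4.01, 4.27 and 4.01 TPM in those of Txnip-/- mice. Ccl25 at TN was at 3.70, 4.08 and 3.31 TPM in WT libraries and at 2.29, 2.83 and 2.89 TPM in Txnip-/- libraries. Only the TN Txnip-/- group stood apart, below the others. Ccl25 fell at TN in Txnip-/- mice by 0.48 (standard error 0.11, adjusted p = 0.00406) on the log2 scale. In WT the difference of TN over RT was 0.01 (standard error 0.11, adjusted p = 0.957), and Txnip-/- over WT at TN was −0.36 (standard error 0.11, adjusted p = 0.0857). Ccl27a, the skin ligand of CCR10, was at 6.89, 6.47 and 5.78 TPM in WT libraries at RT and at 4.39, 5.30 and 5.73 TPM in those of Txnip-/- mice. Ccl27a at TN was at 3.77, 4.07 and 2.79 TPM in WT libraries and at 3.87, 4.42 and 3.44 TPM in Txnip-/- libraries. It fell at TN in WT, the difference being −0.71 (standard error 0.13, adjusted p = 0.0011), and the value in Txnip-/- mice was −0.32 (standard error 0.13, adjusted p = 0.0534). Ccl27a has the near-identical copy Ccl27b, and it shares 8 exon bases with Il11ra1 on the opposite strand, as Ccl25 shares 204 with Elavl1. Whether the reads were counted by strand is not given in the sources used here.

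The interferon-inducible CXC ligands, which act on CXCR3, were called in the temperature comparisons and not between genotypes. Cxcl10 was at 1.39, 1.12 and 1.26 TPM in WT libraries at RT and at 1.15, 1.253 and 2.35 TPM in those of Txnip-/- mice. Cxcl10 at TN was at 3.84, 8.71 and 11.0 TPM in WT libraries and at 10.4, 18.2 and 12.2 TPM in Txnip-/- libraries. The 6 RT libraries lay between 1.12 and 2.35 TPM, and the lowest TN library, TN WT replicate 1, lay above them. That library also had the lowest macrophage marker sum in TN WT, 201 TPM against 277 and 345 TPM. Of the TN WT libraries it was lowest for Ccl5, Ccl2, Ccl22, Cxcr3 and Cxcl9 too, and highest for others such as Cxcl12 and Ackr4. Cxcl10 rose at TN by 1.87 (standard error 0.30, adjusted p = 0.000588) in WT and 2.49 (standard error 0.30, adjusted p = 6.49e-05) in Txnip-/- mice, the largest among the members on the log2(TPM + 1) scale. Txnip-/- over WT was 0.17 (standard error 0.18, adjusted p = 0.703) at RT and 0.79 (standard error 0.33, adjusted p = 0.179) at TN, with an unadjusted p of 0.0434 at TN. Cxcl9 was at 7.09, 7.0 and 8.06 TPM in WT libraries at RT and at 10.4, 10.9 and 9.71 TPM in those of Txnip-/- mice. Cxcl9 at TN was at 8.20, 16.4 and 16.2 TPM in WT libraries and at 23.1, 26.1 and 15.7 TPM in Txnip-/- libraries. At RT the Txnip-/- libraries lay above the WT libraries by a small margin, and at TN the groups overlapped. Cxcl9 rose at TN by 0.74 (standard error 0.23, adjusted p = 0.0174) in WT, a call lost in 2 of 13 alternatives, and 0.97 (standard error 0.23, adjusted p = 0.0042) in Txnip-/- mice, and Txnip-/- over WT was 0.44 (standard error 0.09, adjusted p = 0.0618) at RT and 0.66 (standard error 0.27, adjusted p = 0.17) at TN. The third ligand, Cxcl11, reached at most 0.808 TPM. Cxcl10 shares 133 exon bases with Art3 on the opposite strand. Irf1, a transcription factor of the interferon response, had a TN over RT difference (log2) of 0.90 (standard error 0.13, adjusted p = 0.000387) in WT and 0.92 (standard error 0.13, adjusted p = 0.000203) in Txnip-/- mice.

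The other CXC, XC and CX3C ligands held 4 described members. Cxcl12 (chr6:117168535-117175069, plus strand), the ligand of CXCR4 and ACKR3, was at 24.3, 22.4 and 17.2 TPM in WT libraries at RT and at 24.4, 19.3 and 17.1 TPM in those of Txnip-/- mice. Cxcl12 at TN was at 35.4, 32.4 and 32.0 TPM in WT libraries and at 31.8, 29.1 and 33.5 TPM in Txnip-/- libraries. The RT libraries lay between 17.1 and 24.4 TPM and the TN libraries between 29.1 and 35.4 TPM, with the genotypes overlapping at each temperature. Cxcl12 rose at TN by 0.63 (standard error 0.13, adjusted p = 0.00276) in WT and 0.62 (standard error 0.13, adjusted p = 0.00254) in Txnip-/- mice, and Txnip-/- over WT was −0.07 (standard error 0.16, adjusted p = 0.876) at RT and −0.08 (standard error 0.08, adjusted p = 0.576) at TN. Cxcl16 (chr11:70455189-70459984, minus strand), a membrane-bound ligand of CXCR6 and scavenger of oxidized lipoprotein made by macrophages, was at 2.10, 2.30 and 2.21 TPM in WT libraries at RT and at 5.08, 2.52 and 4.22 TPM in those of Txnip-/- mice. Cxcl16 at TN was at 3.75, 6.41 and 7.97 TPM in WT libraries and at 15.2, 16.5 and 12.9 TPM in Txnip-/- libraries. RT WT was narrow, RT Txnip-/- and TN WT overlapped, and TN Txnip-/- lay above all the others. Txnip-/- over WT was 0.59 (standard error 0.19, adjusted p = 0.2) at RT and 1.21 (standard error 0.21, adjusted p = 0.0145) at TN, a call lost in 2 of 14 alternatives, and TN over RT was 1.09 (standard error 0.23, adjusted p = 0.00244) in WT and 1.71 (standard error 0.23, adjusted p = 0.000115) in Txnip-/- mice. It shares 552 exon bases with Zmynd15 on the opposite strand. Cx3cl1 (fractalkine), the membrane-bound ligand of CX3CR1, was at 3.43, 2.86 and 1.32 TPM in WT libraries at RT and at 2.84, 1.95 and 1.66 TPM in those of Txnip-/- mice. Cx3cl1 at TN was at 4.20, 4.57 and 3.70 TPM in WT libraries and at 4.25, 4.93 and 4.57 TPM in Txnip-/- libraries. All TN libraries lay above all RT libraries, and the genotypes overlapped at each temperature. Cx3cl1 rose at TN by 0.59 (standard error 0.21, adjusted p = 0.0326) in WT, a call lost in 6 of 13 alternatives, and by 0.84 (standard error 0.21, adjusted p = 0.00555) in Txnip-/- mice, with no call between genotypes. Cxcl14, a homeostatic ligand known to be released by brown fat, was at 16.5, 15.4 and 12.2 TPM in WT libraries at RT and at 16.3, 11.9 and 11.0 TPM in those of Txnip-/- mice. Cxcl14 at TN was at 15.9, 15.3 and 10.2 TPM in WT libraries and at 16.3, 14.7 and 16.4 TPM in Txnip-/- libraries. All 4 groups overlapped, and no comparison was called, with −0.17 (standard error 0.16, adjusted p = 0.67) for Txnip-/- over WT at RT and 0.20 (standard error 0.15, adjusted p = 0.457) at TN. The low Xcl1, made by T and NK cells, was at 0.0870, 0.355 and 0.112 TPM in WT libraries at RT and at 0.472, 0 and 0.547 TPM in those of Txnip-/- mice. Xcl1 at TN was at 0.394, 0.730 and 1.17 TPM in WT libraries and at 1.60, 1.24 and 1.75 TPM in Txnip-/- libraries. Its TN Txnip-/- libraries lay above the TN WT libraries, and the log2 fold change of 0.54 (standard error 0.18, adjusted p = 0.105) was not called.

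**Figure D4:**
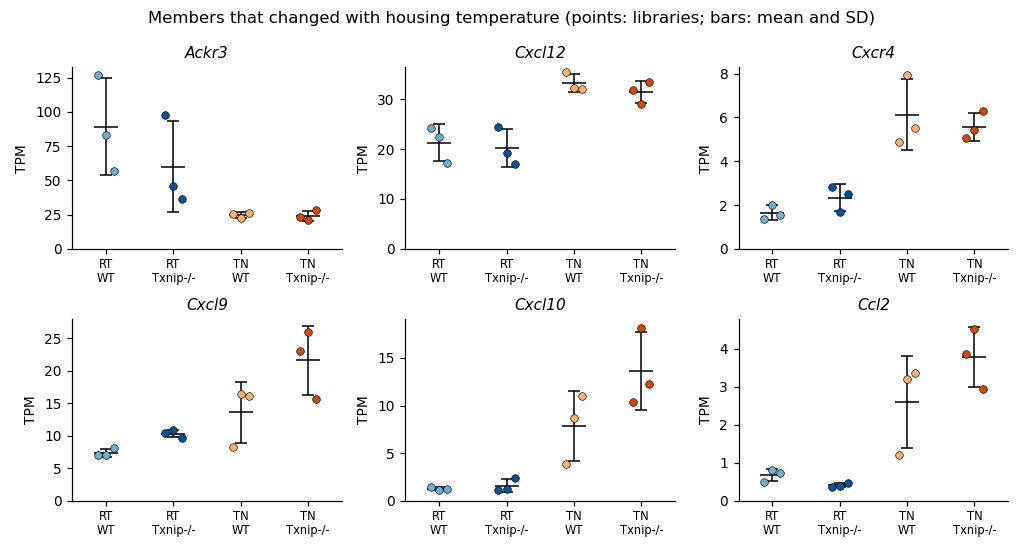
TPM (y axis) of Ackr3, Cxcl12, Cxcr4, Cxcl9, Cxcl10 and Ccl2 by group (x axis). Points are the 3 libraries of a group and bars are the mean and SD. Ackr3 is lower and the other 5 are higher in the TN libraries than in the RT libraries of the same genotype.

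Of the CC receptors, Ccr2 was called between genotypes and Ccr10 with temperature alone. Ccr2 (chr9:124102183-124109140, plus strand), which brings classical monocytes into tissue, was at 1.13, 0.901 and 0.819 TPM in WT libraries at RT and at 4.31, 2.52 and 2.71 TPM in those of Txnip-/- mice. Ccr2 at TN was at 4.21, 5.003 and 7.29 TPM in WT libraries and at 22.5, 14.7 and 14.6 TPM in Txnip-/- libraries. The Txnip-/- libraries lay above the WT libraries at each temperature, and all TN Txnip-/- libraries lay above all the others. Txnip-/- over WT was 1.08 (standard error 0.17, adjusted p = 0.0376) at RT and 1.49 (standard error 0.21, adjusted p = 0.0077) at TN, and the call at RT was lost in 7 of 14 alternatives while that at TN was kept in all 14. Ccr2 rose at TN by 1.71 (standard error 0.21, adjusted p = 0.000158) in WT and 2.12 (standard error 0.21, adjusted p = 2.35e-05) in Txnip-/- mice. Ccr10, the receptor of CCL27 and CCL28 on skin T cells and plasma cells, was at 5.94, 5.76 and 5.38 TPM in WT libraries at RT and at 3.74, 3.65 and 5.25 TPM in those of Txnip-/- mice. Ccr10 at TN was at 4.04, 4.105 and 3.41 TPM in WT libraries and at 2.31, 3.29 and 3.33 TPM in Txnip-/- libraries. The Txnip-/- libraries lay below the WT libraries at each temperature, but neither difference was called, with −0.37 (standard error 0.13, adjusted p = 0.219) at RT and −0.29 (standard error 0.13, adjusted p = 0.202) at TN. Ccr10 had a TN over RT difference (log2) of −0.47 (standard error 0.13, adjusted p = 0.0134) in WT and −0.39 (standard error 0.13, adjusted p = 0.0303) in Txnip-/- mice, both called lower, the second lost in 4 of 13 alternatives. The low Ccr7, the receptor of CCL19 and CCL21 on dendritic cells and naive T cells, was at 0.294, 0.254 and 0.175 TPM in WT libraries at RT and at 0.369, 0.321 and 0.285 TPM in those of Txnip-/- mice. Ccr7 at TN was at 0.452, 0.761 and 0.850 TPM in WT libraries and at 1.73, 1.88 and 1.97 TPM in Txnip-/- libraries. The TN Txnip-/- libraries, between 1.73 and 1.97 TPM, lay above all the others, with 0.77 (standard error 0.13, adjusted p = 0.0132) for Txnip-/- over WT at TN, a call lost in 1 of 13 alternatives.

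Of the 8 CXC, CX3C and XC receptors, Cxcr4, Cx3cr1 and Cxcr3 were described. Cxcr4, the CXCL12 receptor of many leukocytes and of endothelial cells, was at 1.36, 2.02 and 1.56 TPM in WT libraries at RT and at 2.84, 1.67 and 2.52 TPM in those of Txnip-/- mice. Cxcr4 at TN was at 4.89, 7.95 and 5.54 TPM in WT libraries and at 5.04, 5.41 and 6.29 TPM in Txnip-/- libraries. All TN libraries lay above all RT libraries, and the genotypes overlapped at each temperature. Cxcr4 rose at TN by 1.41 (standard error 0.17, adjusted p = 0.000158) in WT and 0.99 (standard error 0.17, adjusted p = 0.000697) in Txnip-/- mice, and Txnip-/- over WT was 0.33 (standard error 0.17, adjusted p = 0.397) at RT and −0.10 (standard error 0.16, adjusted p = 0.76) at TN. Cx3cr1, the fractalkine receptor of resident macrophages and patrolling monocytes, was at 0.762, 0.510 and 0.338 TPM in WT libraries at RT and at 0.594, 0.422 and 0.649 TPM in those of Txnip-/- mice. Cx3cr1 at TN was at 1.70, 3.51 and 2.63 TPM in WT libraries and at 3.94, 4.23 and 2.85 TPM in Txnip-/- libraries. Every RT library was under 1 TPM and every TN library at or over 1.70 TPM. Cx3cr1 rose at TN by 1.21 (standard error 0.18, adjusted p = 0.000454) in WT and 1.58 (standard error 0.18, adjusted p = 5.57e-05) in Txnip-/- mice, and Txnip-/- over WT at TN was 0.39 (standard error 0.20, adjusted p = 0.269). It shares 78 exon bases with Gm33858 on the opposite strand. Cxcr3, the T and NK cell receptor of CXCL9 and CXCL10, was at 0.167, 0.198 and 0.251 TPM in WT libraries at RT and at 0.663, 0.821 and 0.729 TPM in those of Txnip-/- mice. Cxcr3 at TN was at 0.403, 1.20 and 1.79 TPM in WT libraries and at 2.32, 3.31 and 1.65 TPM in Txnip-/- libraries. At RT the Txnip-/- libraries lay above the WT libraries, all under 1 TPM, and at TN the groups overlapped. Cxcr3 rose at TN by 0.77 (standard error 0.23, adjusted p = 0.015) in WT, a call lost in 2 of 12 alternatives, and 0.95 (standard error 0.23, adjusted p = 0.00446) in Txnip-/- mice, and Txnip-/- over WT at TN was 0.71 (standard error 0.27, adjusted p = 0.143). The low Cxcr6, the CXCL16 receptor of T and NK cells, was at 0.142, 0.193 and 0.244 TPM in WT libraries at RT and at 0.461, 0.223 and 0.743 TPM in those of Txnip-/- mice. Cxcr6 at TN was at 0.407, 0.510 and 0.570 TPM in WT libraries and at 1.81, 2.01 and 1.01 TPM in Txnip-/- libraries. Its TN Txnip-/- libraries lay above the TN WT libraries, with 0.78 (standard error 0.17, adjusted p = 0.0296), a call lost in 6 of 11 alternatives. It failed the filter, and so was not tested, with the filter over all 12 libraries and without TN Txnip-/- replicate 1 or 2.

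The atypical receptors held Ackr3, the most abundant member at RT and the one with the largest fall at TN on the log2 scale. Ackr3 (chr1:90203980-90215722, plus strand), which takes up CXCL12 and CXCL11, was at 127, 83.4 and 56.9 TPM in WT libraries at RT and at 97.8, 45.6 and 36.5 TPM in those of Txnip-/- mice. Ackr3 at TN was at 25.6, 22.5 and 26.3 TPM in WT libraries and at 23.0, 21.2 and 28.1 TPM in Txnip-/- libraries. The spread within each RT group was wide, with an SD of 35.4 TPM in RT WT and 33.1 TPM in RT Txnip-/-, against 2.03 and 3.59 TPM in the TN groups, and still every RT library lay above every TN library. The TN over RT log2 fold change of Ackr3 was −1.73 (standard error 0.33, adjusted p = 0.00145) in WT and −1.16 (standard error 0.33, adjusted p = 0.0116) in Txnip-/- mice, and Txnip-/- over WT was −0.62 (standard error 0.40, adjusted p = 0.508) at RT and −0.04 (standard error 0.11, adjusted p = 0.85) at TN. Its ligand Cxcl12 was higher at TN in each genotype. Ackr4, which takes up CCL19, CCL21 and CCL25, was at 4.96, 5.06 and 4.87 TPM in WT libraries at RT and at 3.63, 5.01 and 5.11 TPM in those of Txnip-/- mice. Ackr4 at TN was at 4.13, 2.92 and 2.81 TPM in WT libraries and at 3.60, 4.31 and 3.29 TPM in Txnip-/- libraries. It fell at TN in WT, with −0.49 (standard error 0.14, adjusted p = 0.0123), and the value in Txnip-/- mice was −0.23 (standard error 0.14, adjusted p = 0.175). Ackr4 shares 479 exon bases with Acad11 on the opposite strand. Ackr1 (the Duffy antigen receptor), which carries chemokines across venules, was at 1.04, 0.828 and 0.997 TPM in WT libraries at RT and at 1.13, 1.10 and 1.01 TPM in those of Txnip-/- mice. Ackr1 at TN was at 2.10, 2.41 and 1.19 TPM in WT libraries and at 2.96, 1.94 and 1.95 TPM in Txnip-/- libraries. Ackr1 rose at TN by 0.55 (standard error 0.16, adjusted p = 0.0163) in WT, a call lost in 3 of 13 alternatives, and 0.64 (standard error 0.16, adjusted p = 0.00654) in Txnip-/- mice, with no call between genotypes, and it shares 361 exon bases with Cadm3 on the same strand. Ackr2, the inflammatory CC scavenger, reached at most 0.374 TPM.

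To set 5 of the called members beside the macrophage markers, each was divided by the summed level of the 16 markers in the same library, a description added after the data were seen. Per 100 TPM of the marker sum, Cxcl16 was at 2.14 ± 0.173 TPM in WT libraries and 1.85 ± 0.227 TPM in those of Txnip-/- mice at RT, and at 2.17 ± 0.260 and 2.20 ± 0.114 TPM at TN (SD, n = 3). On this scale the WT and Txnip-/- ranges of Cxcl16 overlapped at each temperature. Ccl6 was at 2.69 ± 0.270, 4.08 ± 0.324, 2.96 ± 0.513 and 4.38 ± 0.586 TPM per 100 TPM in the same order of groups, with no overlap between the genotypes at either temperature. The lipid-laden markers, none of which is in this sum, had a larger median genotype difference at TN than the 16 markers, and their part in this ratio was not tested. For Ccl9 the values were 0.841 ± 0.156, 1.28 ± 0.139, 1.22 ± 0.0862 and 1.53 ± 0.179, again without overlap between the genotypes. Ccr2 was at 0.932 ± 0.225, 1.53 ± 0.303, 2.0 ± 0.171 and 2.57 ± 0.697, with no overlap between the genotypes at RT and overlap at TN. Ccl5 was at 1.20 ± 0.387, 1.86 ± 0.737, 2.09 ± 0.750 and 2.55 ± 0.424, and its genotypes overlapped at each temperature. Ccl21a, a called member outside these 5, went the other way, with 1.91 ± 1.05, 0.770 ± 0.491, 0.786 ± 0.298 and 0.540 ± 0.172. Its genotypes also overlapped at each temperature. Ratios to the sum of 16 genes depend on the genes chosen, and no test was made on them.

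**Figure D5:**
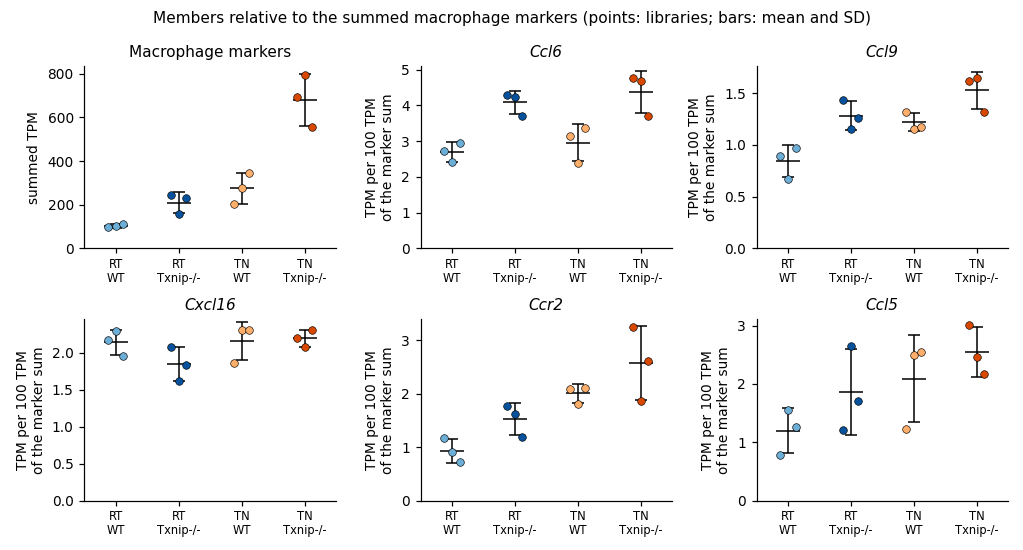
Summed TPM of 16 macrophage markers (first panel, y axis) and TPM of 5 members per 100 TPM of that sum (other panels, y axis), by group (x axis). Points are the 3 libraries of a group and bars are the mean and SD. The marker sum is highest in TN Txnip-/-, and Ccl6 and Ccl9 lie higher in Txnip-/- than in WT libraries per marker level while Cxcl16 overlaps across groups.

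Whether the genotype difference itself changed with temperature was tested as an interaction over all 12 libraries. Of the 26 members tested, 0 were called, against 0.00801% of the 12486 genes, which is Txnip alone. With an unadjusted p under 0.05, limma marked 2 members, Ccl25 and Ccl2, and 1571 of all genes. Ccl25 had an interaction of −0.49 (standard error 0.16, adjusted p = 0.27) and Ccl2 of 0.70 (standard error 0.32, adjusted p = 0.388) on the log2 scale. The median interaction of the 26 members was 0.37, with 23 above 0, beside a median of −0.02 for all genes. The log2(TPM + 1) scale shrinks differences at low TPM, and most members were lower at RT. Values above 0 can thus come from the scale, which was not tested. By mean TPM, Txnip-/- over WT at RT and TN was 3.34 and 3.14 times for Ccr2, 2.93 and 2.89 for Ccl5, and 3.12 and 3.19 for Ccl9. It was 3.05 and 3.70 times for Ccl6 and 1.79 and 2.46 for Cxcl16. Ccl6, called at each temperature, had an interaction of 0.46 (standard error 0.35, adjusted p = 0.612). Ccl9 and Cxcl16, called at TN and not at RT, had 0.43 (standard error 0.30, adjusted p = 0.578) and 0.62 (standard error 0.32, adjusted p = 0.442). Ccl21a, also called at TN and not at RT, had the largest value of the 26 members, 0.84 (standard error 0.40, adjusted p = 0.416). A larger genotype difference at TN was thus not shown for these 4.

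The machinery downstream of the receptors was followed in a list of 52 signalling and adhesion genes. At TN, 15 of the 50 tested were called higher in Txnip-/- mice and 1 lower, against 6.49% and 2.17% of all genes, and the median of the list was 0.24 on the log2 scale, beside 0.01. Of those called higher, the 4 with the lowest adjusted p were the leukocyte Rac activator Dock2, at 1.03 (standard error 0.15, adjusted p = 0.00794), the myeloid kinase Fgr, at 0.87 (standard error 0.13, adjusted p = 0.00998), the receptor-desensitizing Arrb2, at 0.70 (standard error 0.12, adjusted p = 0.0132), and the leukocyte GTPase Rac2, at 1.04 (standard error 0.18, adjusted p = 0.0132). At RT, 1 of the 40 tested was called higher, the leukocyte integrin Itgb2 with 0.88 (standard error 0.15, adjusted p = 0.0472), and 1 lower, the Rac activator Tiam1 with −0.96 (standard error 0.13, adjusted p = 0.0256). Of all genes, 0.76% were called higher and 0.726% lower at RT, so that 1 call each way in 40 genes says little. Tiam1 was also the gene called lower at TN, at −0.73 (standard error 0.11, adjusted p = 0.00926). TN over RT, 25 of 46 were called higher and 2 lower in WT, and 25 higher and 2 lower in Txnip-/- mice, with medians of 0.35 and 0.45. Of all genes, 31.4% and 30.9% were called higher and 6.39% and 8.27% lower.

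Cytokines that induce chemokines were low, with 19 of 22 genes at a mean under 1 TPM, and Ltb, a lymphotoxin chain of lymphocytes, was the gene of this list called higher in Txnip-/- mice at TN, at 0.85 (standard error 0.20, adjusted p = 0.0391). Among 34 cytokine receptors and NF-kB or STAT regulators, 0 of the 31 tested were called at RT and 9 of the 34 tested were called higher and 0 lower at TN, against 0.76% of all genes called higher at RT and 6.49% at TN. The medians were 0.02 and 0.24, beside 0.03 and 0.01 for all genes. With temperature, 15 of 33 were called higher and 1 lower in WT, and 24 higher and 0 lower in Txnip-/- mice, beside the 31.4% and 30.9% of all genes called higher. Of 23 proteases and glycan genes that cut or hold chemokines, 0 of 18 were called at RT and 4 of 21 were higher at TN in Txnip-/- mice, namely Mmp14, Ctsb, Mmp2 and Mmp12, where 0.76% and 6.49% of all genes were called higher. Mmp14, a membrane metalloproteinase, had 0.95 (standard error 0.09, adjusted p = 0.00297), and Mmp12, the macrophage elastase, had 2.51 (standard error 0.43, adjusted p = 0.0132). Among 13 relatives outside the symbol rule, 0 of the 10 tested were called at RT and 3 of the 11 tested were higher in Txnip-/- mice at TN, beside the same 0.76% and 6.49%, so that 0 calls in lists of this size at RT say little. They were Cmtm7, the complement receptor C5ar1 and Rarres2, which encodes the attractant chemerin and was the most abundant of the 3, at a mean of 102 TPM in WT and 151 TPM in Txnip-/- libraries at TN. TN over RT, 7 of 10 relatives were called higher in WT and 10 of 10 in Txnip-/- mice, beside the same 31.4% and 30.9%. Pf4, which reached 22.5 TPM, was among them in each genotype.

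The 35 low members are given by their highest value in any library, in TPM. Among the CC ligands they were Ccl7 (1.91), Ccl3 (1.70), Ccl24 (1.58), Ccl4 (1.45), Ccl19 (1.34), Ccl17 (1.05), Ccl28 (0.516), Ccl1 (0.253), Ccl26 (0.227) and Ccl27b (0.142), beside the 3 listed at 0. The 5 CXC ligands of the symbol rule that attract neutrophils were all low, with Cxcl1 (0.952), Cxcl2 (0.634), Cxcl3 (0.250), Cxcl5 (0.0300) and Cxcl15 (0.0190). The neutrophil receptors Cxcr2 and Cxcr1 reached 0.229 and 0.050 TPM. Ppbp, a relative outside the rule, reached 1.555 TPM. The other low ligands were Xcl1 (1.75), Cxcl11 (0.808), Cxcl13 (0.805) and Cxcl17 (0.317). The other low receptors were Cxcr6 (2.01), Ccr7 (1.97), Cxcr5 (1.24), Ccr9 (0.807), Ccr1 (0.805), Ccr6 (0.693), Xcr1 (0.682), Ccr4 (0.543), Ccr3 (0.445), Ccr8 (0.423) and Ackr2 (0.374). Every low member above 0 had its highest value in a TN library, at times by little near 0. Cxcl5 reached 0.030 TPM at TN and 0.028 TPM at RT. By a stricter measure, 45.5% of 12486 genes in WT and 44.1% in Txnip-/- mice had all TN libraries above all RT libraries.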

How the data were processed

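RNA of interscapular BAT was measured in 12 libraries, 3 in each of 4 groups, taken from the labels. The study made poly-A libraries, aligned the reads with STAR 2.7.5a to mm10 and counted exon reads with HOMER 4.11.1, and the authors deposited TPM for 25124 genes with 1 transcript per gene. They also deposited log2 values for each temperature, whose exact transform is not given in the sources used here and which served as an alternative. Their fold change and p-value columns were not used. No read counts were analysed here, so limma 3.58.1 in R 4.3.3 was run on log2(TPM + 1) for genes with a mean of at least 1 TPM, with empirical Bayes moderation and a mean-variance trend. Genotypes were compared within 6 libraries of each temperature, and temperatures and the interaction were fitted over all 12. The fit was tested on simulated data. Alternatives were a pseudocount of 0.1, no filter, a filter over all 12 libraries, no limit on the fold, upper-quartile scaling, the log2 values, a fit over all libraries, a replicate block and leaving out each library. Python 3.11.15 and matplotlib 3.10.9 served for the tables and plots. The members and gene lists were chosen with earlier results of these data known. Members are accounted for by role, and those with a mean of at least 1 TPM are described, except that 1 of them enters the counts and is not reported here. Genes outside the rule are named from the fixed lists. The genotypes were littermates, but which libraries share a litter is not given in the sources used here, so p-values measure the spread between these libraries.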

Additional observations from a re-analysis of the deposited data

How the results depend on the processing

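At RT, the 3 calls between genotypes became 1 without the filter on low values, a setting under which only Cxcr3 was called and none of the 3 was shared, and between 0 and 3 when 1 library was left out. At TN, the 9 calls became between 3 and 9. Fewer libraries were fitted there, and the cause beyond that was not tested. No interaction was called for a member under any alternative. Differences that were not called turned sign in places. For Ccl27a at TN the deposited log2 values gave −0.044 in place of 0.12, but those values are for another transcript, as also for Ackr3, Cxcl12, Cxcl16, Cxcr4 and Ccl25. With 1 library left out, the genotype difference at RT ran from −0.035 to 0.29 for Cxcl10, from −0.54 to 0.075 for Ccl21a, from −0.18 to 0.024 for Ackr4, from −0.41 to 0.056 for Cx3cl1 and from −0.21 to 0.037 for Cxcl12. At TN it ran from −0.005 to 0.21 for Ccl27a, from −0.22 to 0.081 for Cxcr4, from −0.16 to 0.038 for Ackr3 and from −0.0013 to 0.32 for Ackr1. No called difference turned sign: of the values called, 287 kept and 50 lost their call over the fits with 1 library left out, and 384 kept and 22 lost it over the other alternatives. Part of the 384 was fixed in advance. Removing the fold limit cannot lose a call, and for temperature the filter over all 12 libraries is the main filter. A change of filter, block or fold limit leaves the estimate as it is, so no sign could turn there. Fits in which a member failed the filter are not in these totals. Upper-quartile scaling gave the same 3 calls at RT and 9 at TN. For TN against RT it lost Cx3cl1 in WT, giving 21 calls in place of 22, and in Txnip-/- mice it lost Ccl11 and gained Ccl27a.

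Deviations of same-numbered libraries of the genotypes had correlations of 0.297, −0.022 and 0.21 at RT, the first and last being the highest of the 9 pairs there, and of 0.042, 0.023 and −0.036 at TN. At RT, Ackr3 and Cxcl12 also had the same order of libraries in each genotype, and with the number as a block the genotype difference of Ackr3 at RT, −0.62 on the log2 scale, had an adjusted p of 0.0641 in place of 0.508 (limma). As not every pair passed 0.1, the number was not taken to pair the libraries. With that number as a replicate block, 3 members were called at RT and 7 at TN, with Ccl5 and Cxcr6 lost at adjusted p of 0.0651 and 0.0514 (limma). The block left the counts at 22 for TN against RT in WT, 23 in Txnip-/- mice and 0 for the interaction. TPM keep no read depth of single genes, so counting error of the members near 1 TPM could not be given.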
